A study of Mus musculus with 6 samples.

Results

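Heat shock proteins and their J-domain cochaperones were examined in the gastrocnemius, a calf muscle, of young and aged mice. The members were chosen by gene symbol, with earlier results of these data known. They are every gene with an HSP70 (Hspa), HSP110 (Hsph), HSP90 (Hsp90) or small heat shock protein (Hspb) symbol. Genes with an HSP60 or HSP10 (Hspd, Hspe) or a J-domain (Dnaja, Dnajb, Dnajc) symbol are members too. Of 21362 gene symbols on the array, 70 protein-coding genes with 99 probes were members. Muscle RNA came from a group of 3 mice aged 13 weeks, called young, and a group of 3 mice aged 26 months, called aged, and each mouse had its own single-colour Agilent array. Per the study's methods all mice were C57BL/6J males, with no transgene or treatment in either group, so age was the only labelled difference. A level below is the log2 signal of a probe relative to the 75th percentile of its array, and a difference is the aged mean minus the young mean of that level.

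Heat shock proteins are molecular chaperones, which bind unfolded or partly folded proteins. HSP70 binds and releases short hydrophobic stretches in a cycle driven by ATP, J-domain proteins bring clients to HSP70 and stimulate its ATPase, and HSP110 proteins act as nucleotide exchange factors that let HSP70 release its client. HSP90 acts later on kinases, receptors and other clients, small heat shock proteins hold unfolding proteins in solution without ATP, and HSP60 with HSP10 folds proteins in the mitochondrial matrix. In muscle, chaperones of these families associate with the contractile apparatus and with its turnover, and the inducible ones are known to be expressed more under heat, exercise and other protein-folding stress.

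The 6 arrays lay on 1 slide and were scanned together. At the 75th percentile of the array, the processed signal was 209 to 300 in the young and 270 to 310 in the aged mice, and 48.7% to 53.8% of probes were well above background. The 10 skeletal muscle markers, among them Acta1, Ckm and Myh4, were measured on all 6 arrays. Their summed level on the linear scale was 7417 to 9068 times the array's 75th percentile in young and 6141 to 8072 times in aged mice. All 10 means were lower in aged mice, with a median difference of -0.18. After quantile normalization 7 were lower and 3 higher, with a median of -0.01. In bulk muscle, fewer cells of a type and less RNA per cell cannot be told apart. The first row of the slide held the 3 young arrays and aged 1, and the second row held aged 2 and aged 3. Row and age therefore separate only in the first row, where the age difference is that of a single aged mouse. A difference fitted with slide row as a block is thus the level of aged 1 minus the young mean. Nothing in the labels says how litters or cages were shared, so p-values measure the spread between these mice only.

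Of the 70 members, 62 were well above background on all 6 arrays and were tested in limma with the other genes, 20900 in all. The other 8 were dim: Dnajb13, Dnajb7, Dnajc22, Dnajc5b, Dnajc5g, Dnajc6 and Hspa12a were well above background on no array, and Dnajb3 on 1 young array. Of the members known mainly from testis, 5 of 10 could be tested. Hspa1b and Dnajb5 had no matched probe, so their expression was not analysed here. The promoter windows of Hspa1a and Hspa1b were identical at 247 of 250 bases (98.8%), but these bases lie before the transcript and do not bear on the probe. Both genes encode near-identical proteins, and the Hspa1a probe may also report Hspa1b. Probe and transcript sequences were not compared.

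The upstream sequences of the members were searched for the motifs of the heat shock response and of the unfolded protein response. The heat shock element, bound by heat shock factors, was searched on both strands as GAANNTTC or TTCNNGAA (2 units) and as 3 alternating units of GAA and TTC with 2 free bases between neighbours, which contain the 2-unit motif. The ER stress element, bound by factors of the unfolded protein response, was searched on both strands as CCAAT followed by CCACG with 9 free bases between them. Sequences are the 250 bases before the transcription start site in RefSeq (GRCm38.p6). Such a window was available for 58 genes with a matching symbol, and these are the members of the motif counts. Hspa1b is among them although it had no matched probe. The windows printed here were picked because they belong to the gene with the largest mean difference among the members, Hspa1a, and to the 3 members with an ER stress element. Each runs 5′ to 3′ on the gene's strand, and capitals mark the matches of the 2-unit heat shock element in Hspa1a and of the ER stress element in the other 3.
Hspa1a (chr17:34972157-34972406, minus strand, match starting 104 bases before the start site): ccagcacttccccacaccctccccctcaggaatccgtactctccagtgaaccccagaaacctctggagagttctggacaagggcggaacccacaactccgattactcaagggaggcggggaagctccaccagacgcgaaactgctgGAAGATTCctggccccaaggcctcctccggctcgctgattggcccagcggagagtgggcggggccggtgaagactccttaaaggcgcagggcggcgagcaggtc
Hspa5 (chr2:34771840-34772089, plus strand, match starting 65 bases before the start site): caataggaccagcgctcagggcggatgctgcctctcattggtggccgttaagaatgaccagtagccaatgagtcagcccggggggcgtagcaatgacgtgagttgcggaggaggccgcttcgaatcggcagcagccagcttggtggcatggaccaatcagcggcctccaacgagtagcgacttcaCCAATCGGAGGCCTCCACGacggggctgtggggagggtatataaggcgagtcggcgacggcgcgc
Hsp90b1 (chr10:86705445-86705694, minus strand, matches starting 212 and 107 bases before the start site): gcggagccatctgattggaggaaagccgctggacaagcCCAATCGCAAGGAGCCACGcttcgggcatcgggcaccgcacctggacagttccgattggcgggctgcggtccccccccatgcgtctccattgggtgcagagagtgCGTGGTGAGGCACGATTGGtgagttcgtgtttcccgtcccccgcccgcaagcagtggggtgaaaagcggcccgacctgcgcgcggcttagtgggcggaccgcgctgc
Dnajc3 (chr14:118937682-118937931, plus strand, match starting 105 bases before the start site): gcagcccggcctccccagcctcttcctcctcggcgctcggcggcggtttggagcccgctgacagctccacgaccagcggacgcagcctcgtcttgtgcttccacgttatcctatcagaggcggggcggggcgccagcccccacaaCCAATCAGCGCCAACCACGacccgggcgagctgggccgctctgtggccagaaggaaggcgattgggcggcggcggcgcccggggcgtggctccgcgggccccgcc

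The 2-unit heat shock element was found in 14 of 58 members (24.1%) and in 14.5% of 27025 genes. Its holders were Dnaja1, Dnaja4, Dnajb4, Dnajb6, Dnajc10, Dnajc27, Hspa1a, Hspa1b, Hspb1, Hspb3, Hspb6, Hspd1, Hspe1 and Hsph1. The near-identical windows of Hspa1a and Hspa1b were counted as separate holders. The 3-unit motif stood in the windows of Dnajb6, Hspd1 and Hspe1 (5.17% of members, 0.514% of all genes), and Hspd1 and Hspe1 lie head to head in the genome and share a promoter region. The ER stress element was found upstream of Hspa5, Hsp90b1 and Dnajc3 (5.17% of members, 0.13% of all genes). A match is a run of letters in this window and not a measured binding site.

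No member passed an adjusted p of 0.05 in limma with Benjamini-Hochberg adjustment over all genes, in either direction, whereas 41 of all genes (0.196%) passed as higher and 12 (0.0574%) as lower in aged mice. At an unadjusted p under 0.05, 5 members were higher in aged mice (8.06% of members, against a background of 6.07% of all genes) and 1 was lower (1.61%, against 8.36%). The 5 were Hspa1a, Hspb8, Hspa5, Hspb7 and Dnajb2, and the 1 was Dnajc14. Hspa1a and Hspb8 were at an unadjusted p under 0.05 whichever mouse was left out, but with slide row as a block only Hspb7 of these 6 was. The count of higher members was 9 without aged 1 (against 7.36% of all genes) and 2 without aged 3 (against 4.33%). It was 3 without young 1 (against 5.92%) or without young 3 (against 6.3%). The count of lower members was 0 without any 1 mouse, against 4.53% to 10.7% of all genes. With another scaling the split between higher and lower was 3 to 3 (median of each array) or 6 to 0 (percentile taken over detected probes only). The split of all genes moved as well, to 3.14% higher and 11.7% lower with the first and 6.82% and 6.73% with the second. In 11 members (17.7%, against 21.8% of all genes) the groups did not overlap. All aged mice lay above all young mice in 6 (9.68%, against 7.92% of all genes) and below them in 5 (8.06%, against 13.9%). The median difference of the 62 members was 0.00 on the log2 scale, beside -0.06 for all genes tested, and their differences ran from -0.40 to 2.33. The mean was higher in aged mice in 32 members (51.6%, against 43.1% of all genes).

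**Figure D1:**
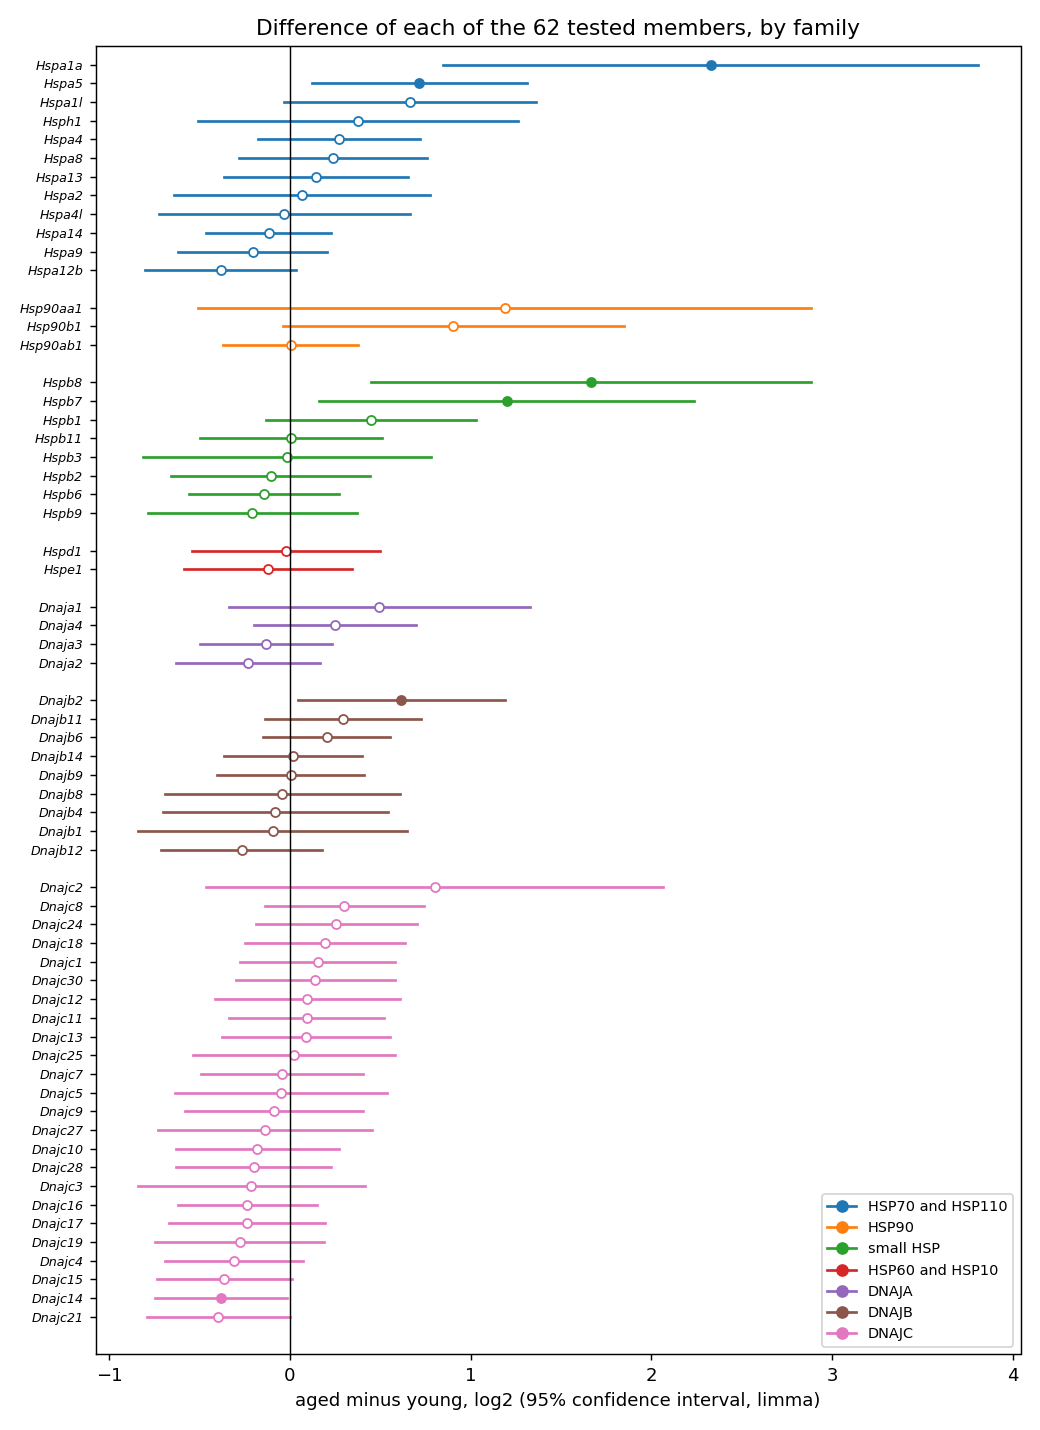
Difference between aged and young means (log2, x axis) of the 62 tested members, 1 point per gene grouped by family, with filled points for an unadjusted p under 0.05 and open points for the others. The HSP90 members lie at or above 0 (Hsp90ab1 at -0.14 with arrays scaled on their medians) and the J-domain families are centred near 0, with Hspa1a at 2.33 as the member farthest to the right.

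Among the HSP70 and HSP110 proteins, 8 of 12 tested members had a higher mean in aged mice and 4 a lower one, with a median difference of 0.19. With slide row as a block, aged 1 alone is set against the young mice. The median was then -0.10, and Hspa8 and Hsph1 were among those below 0. Hspa1a, the stress-inducible cytosolic HSP70, stood apart. The young mice had levels of -1.03, -0.97 and -1.28, and the aged mice 0.60, 0.31 and 2.80. All 3 aged mice were above all 3 young mice, and aged 3 was far above the other two. The mean level was -1.09 ± 0.17 for young mice and 1.24 ± 1.37 for aged mice (SD, n = 3), a difference of 2.33 (SE 0.62, 95% interval 0.85 to 3.81), which is a 5.02-fold higher signal in the aged mice (interval 1.80 to 14) with an adjusted p of 0.196. Without aged 3 the difference was 1.54 and without aged 2 it was 2.79. Within the first row of the slide it was 1.69.

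Hspa5 (BiP), the HSP70 of the endoplasmic reticulum (ER), was the other HSP70 at an unadjusted p under 0.05. Its levels were 5.74, 5.42 and 5.67 in the young and 5.88, 6.34 and 6.76 in the aged mice. The groups did not overlap, although aged 1 was close to the highest young mouse. The difference was 0.72 (SE 0.25, interval 0.12 to 1.31), a fold of 1.64, with an adjusted p of 0.286. Within the first row, which holds aged 1 alone of the aged mice, the difference was 0.27.

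Hspa1l, a relative of Hspa1a encoded next to it and known mainly from testis, had levels of 1.47, 1.51 and 1.43 in young mice, which lay close together, and of 2.44, 1.46 and 2.49 in aged mice. Aged 1 and aged 3 were above every young mouse and aged 2 was among them, giving a difference of 0.66 (SE 0.29, adjusted p 0.367). Hspa8, the constitutive cytosolic HSP70, had levels of 7.15, 6.91 and 6.73 in young mice and 6.81, 7.28 and 7.42 in aged mice, with overlapping groups and a difference of 0.24 (SE 0.22, interval -0.28 to 0.76, adjusted p 0.642). Its 3 probes differed by between -0.01 and 0.66, so they did not share a sign. Hspa9 (mortalin), the mitochondrial HSP70, was at 5.74, 5.72 and 5.79 in young and at 5.62, 5.28 and 5.73 in aged mice, a difference of -0.21 (SE 0.17, adjusted p 0.613) to which aged 2 contributed most.

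The HSP110 proteins are the exchange factors of HSP70. Hsph1 (HSP105), the inducible one, was at 4.25, 4.37 and 4.01 in young and at 4.03, 4.29 and 5.45 in aged mice. Aged 3 alone was above the young range, and the difference of 0.38 (SE 0.37, interval -0.51 to 1.26, adjusted p 0.665) changed sign when that mouse was left out (-0.06). Hspa4, an HSP110 despite its symbol, had a difference of 0.27 (adjusted p 0.542), with 3 probes between 0.20 and 0.51, and its relative Hspa4l one of -0.03. Hspa12b, a distant relative known from endothelium, was at 1.65, 1.46 and 1.81 in young and 1.29, 1.40 and 1.07 in aged mice. The groups did not overlap, the aged mice being lower, with a difference of -0.38 (SE 0.18, adjusted p 0.382). The 6 endothelium markers had 3 means higher and 3 lower in aged mice, with a median difference of -0.13 and a summed level of 31.1 to 34.8 in young and 21.4 to 29.9 in aged mice. Cdh5 was the 1 marker at an unadjusted p under 0.05 (-0.79, adjusted p 0.215), and Pecam1 was at 0.52 (adjusted p 0.693). Their part in the Hspa12b result was not tested.

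The 3 HSP90 genes had a median difference of 0.91, with 3 of 3 means higher in aged mice, but each behaved differently across the mice. With slide row as a block, which sets aged 1 alone against the young mice, the median was -0.17, with Hsp90aa1 and Hsp90ab1 below 0. Hsp90aa1 encodes the inducible cytosolic form. Its levels were 2.33, 1.92 and 2.78 in young mice and 1.77, 4.29 and 4.53 in aged mice. Aged 2 and aged 3 were above the young range and aged 1 was below it, so that the difference of 1.19 (SE 0.71, interval -0.51 to 2.88, adjusted p 0.483) had a wide interval. Leaving out aged 1 gave a difference of 2.07 with an adjusted p of 0.0448, the only call of a member in any of the alternatives. Without aged 1, all young arrays lay in the first slide row and all aged arrays in the second. Age and row cannot be told apart in that fit, where 199 of 20900 genes passed, against 53 with all mice. Within the first row of the slide the sign was opposite, at -0.57.

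Hsp90ab1, the constitutive cytosolic HSP90, varied little. The young mice were at 8.63, 8.73 and 8.71 and the aged mice at 8.52, 8.77 and 8.80. The groups overlapped and the difference was 0.00 (SE 0.16, interval -0.37 to 0.38, adjusted p 0.990), and it took the value -0.14 when arrays were scaled on their medians. Hsp90b1 (GRP94), the HSP90 of the ER, was at 3.59, 4.18 and 4.34 in young and at 4.16, 5.03 and 5.64 in aged mice. Aged 2 and aged 3 were above every young mouse and aged 1 was within the young range, for a difference of 0.91 (SE 0.40, interval -0.04 to 1.85), a fold of 1.87, with an adjusted p of 0.363. The difference was 0.12 within the first row.

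**Figure D2:**
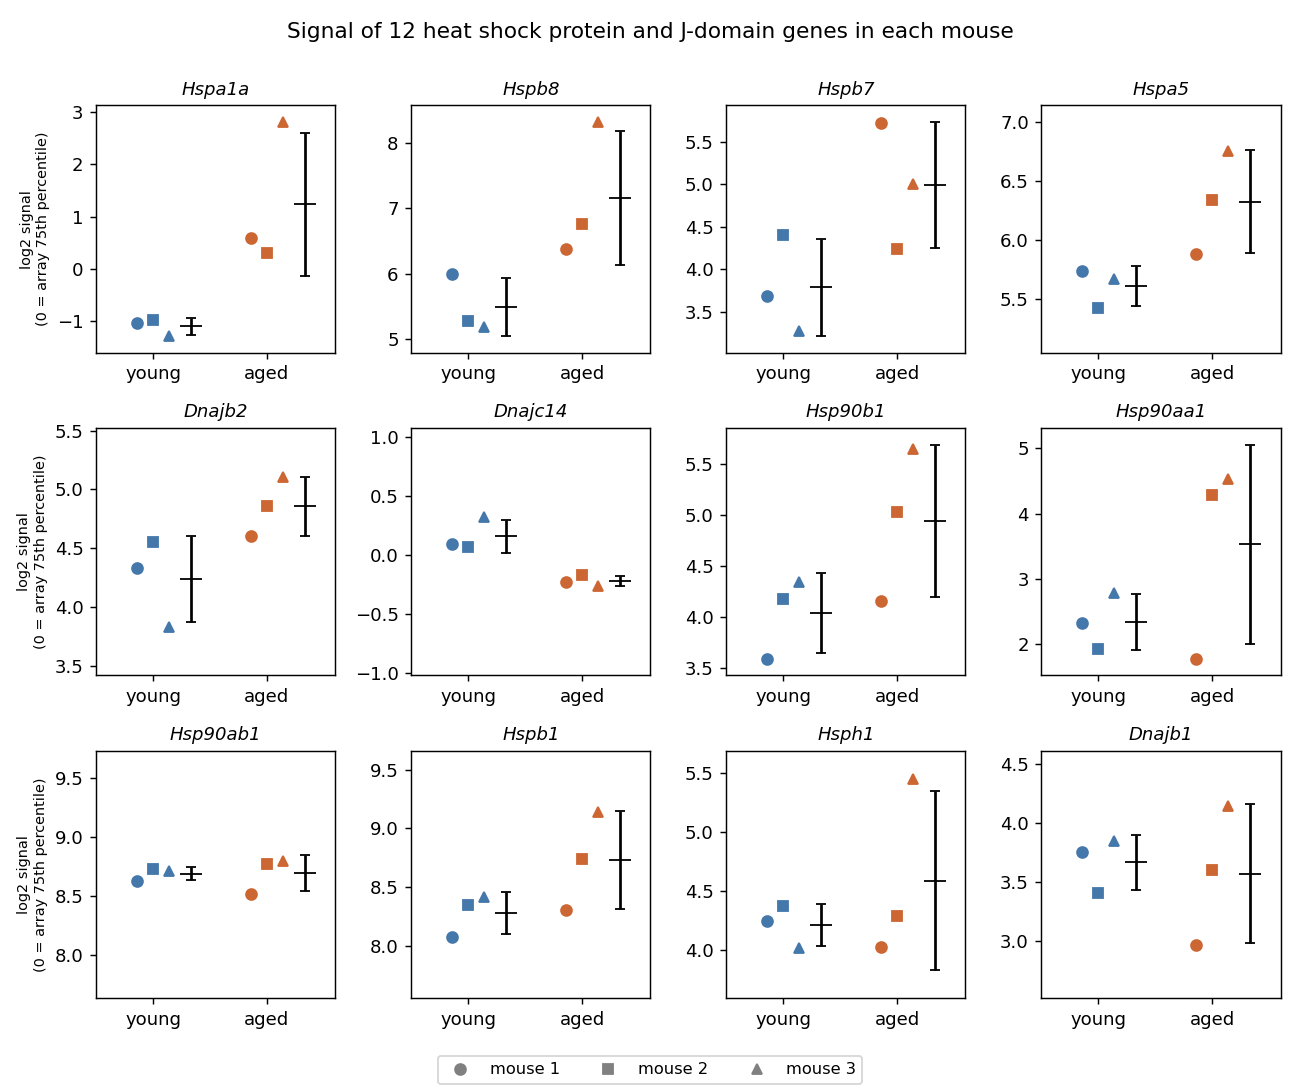
Level of a part of the named genes in each of the 6 mice (log2 signal relative to the array's 75th percentile, y axis). Each panel has its own range and 1 point per mouse, with young and aged mice side by side and a bar for the group mean. Aged 3 is the highest of the 6 mice for Hspa1a (2.80), Hspb8 (8.32), Hspa5 (6.76) and Hsp90aa1 (4.53), and the young mice of Hspa1a lie between -1.28 and -0.97.

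Of the 8 small heat shock proteins, all tested, 4 means were higher and 4 lower in aged mice, with a median difference of 0.00 that was -0.15 when arrays were scaled on their medians. Hspb8, which works with the cochaperone Bag3 to deliver damaged muscle proteins to autophagy, had levels of 6.0, 5.28 and 5.19 in young mice and 6.38, 6.77 and 8.32 in aged mice. Every aged mouse was above every young mouse and aged 3 was the highest. The means were 5.49 ± 0.44 and 7.16 ± 1.03 (SD, n = 3), a difference of 1.67 (SE 0.51, interval 0.45 to 2.89) or 3.18-fold (interval 1.37 to 7.39), with an adjusted p of 0.238. Without aged 3 the difference was 1.09, and within the first row it was 0.89.

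Hspb7 (cvHSP) is a small heat shock protein of heart and skeletal muscle. The young mice were at 3.68, 4.41 and 3.28 and the aged mice at 5.72, 4.24 and 5.01. Here aged 1 was highest and aged 2 lay within the young range, so the groups overlapped. The difference was 1.20 (SE 0.44, interval 0.16 to 2.24), a fold of 2.30, with an adjusted p of 0.299. Within the first row it was 1.93, larger than with all mice, whereas the first-row differences of Hspa1a, Hspb8 and Hspa5 were smaller.

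Hspb1 (HSP25 in the mouse), which binds actin filaments and sarcomere proteins, was at 8.07, 8.35 and 8.42 in young and at 8.31, 8.74 and 9.14 in aged mice. Aged 2 and aged 3 were above the young range, with a difference of 0.45 (SE 0.24, interval -0.13 to 1.03) and an adjusted p of 0.443. Hspb6 (HSP20), which is phosphorylated downstream of cyclic nucleotides in muscle, was at 8.72, 9.06 and 9.05 in young and at 8.82, 8.65 and 8.92 in aged mice. The groups overlapped and the difference was -0.14 (SE 0.17, adjusted p 0.733), or 0.01 after quantile normalization. Hspb2 and Hspb3, which form a complex in muscle, had differences of -0.11 and -0.01, and Hspb11, an intraflagellar transport protein despite its symbol, one of 0.01. Hspb9, known from testis, was at -2.03, -1.72 and -1.32 in young and at -1.62, -1.90 and -2.18 in aged mice, for a difference of -0.21 (adjusted p 0.719).

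Hspd1 (HSP60) and Hspe1 (HSP10) form the chaperonin of the mitochondrial matrix. Hspd1 was at 6.24, 6.22 and 6.28 in young mice and at 5.82, 6.29 and 6.58 in aged mice. The young mice lay close together while aged 1 was below and aged 3 above them, and the difference was -0.02 (SE 0.22, interval -0.54 to 0.50, adjusted p 0.970), with the sign turned after quantile normalization (0.07) or with the percentile over detected probes (0.01). Hspe1 was at 6.37, 6.53 and 6.65 in young and at 6.08, 6.53 and 6.57 in aged mice, with a difference of -0.12 (SE 0.20, adjusted p 0.797) and 3 probes between -0.14 and -0.03. Aged 1 was the lowest mouse for both genes.

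The J-domain proteins of the DNAJA and DNAJB families pair with HSP70 in folding. In DNAJA 2 means were higher and 2 lower in aged mice, with a median difference of 0.06, or -0.09 with arrays scaled on their medians. Dnaja2 was among the lower, at -0.23 (adjusted p 0.555) with its brightest probe and at -0.58 with a second probe. With the mean of all its probes Dnaja2 was at an unadjusted p under 0.05 in limma. Dnaja1, a farnesylated cochaperone of cytosolic HSP70, was at 4.53, 4.12 and 4.43 in young and at 4.11, 4.96 and 5.49 in aged mice. Aged 2 and aged 3 were above the young range and aged 1 just below it, for a difference of 0.49 (SE 0.35, adjusted p 0.547), and its second probe gave 0.74. Dnaja3 (Tid1), the mitochondrial member, was at 6.32, 6.34 and 6.44 in young and at 6.12, 6.21 and 6.37 in aged mice, with overlapping groups and a difference of -0.13 (SE 0.15, adjusted p 0.715).

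Of 9 tested DNAJB members, 5 means were higher and 4 lower in aged mice, with a median difference of 0.01, or -0.14 with arrays scaled on their medians. Dnajb2, a neuronal and muscle J protein that hands ubiquitylated clients to the proteasome, was at 4.34, 4.55 and 3.83 in young and at 4.60, 4.86 and 5.11 in aged mice. All aged mice were above all young mice, narrowly so for aged 1. The difference was 0.62 (SE 0.24, interval 0.04 to 1.19), a fold of 1.53, with an adjusted p of 0.322. A second Dnajb2 probe, for another transcript, gave 0.33. Dnajb6, the J protein of the muscle Z-disc that is mutated in a limb-girdle muscular dystrophy, had levels of 5.63, 5.59 and 5.60 in young and 5.78, 5.93 and 5.73 in aged mice. Its groups did not overlap, with a difference of 0.20 (SE 0.15, adjusted p 0.553) and 4 probes between 0.08 and 0.30.

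Dnajb1 (HSP40), the heat-inducible partner of Hspa1a, did not share the Hspa1a pattern. It was at 3.75, 3.40 and 3.85 in young mice and at 2.97, 3.60 and 4.15 in aged mice. Aged 1 was the lowest and aged 3 the highest of the 6 mice, and the difference was -0.10 (SE 0.31, interval -0.84 to 0.65, adjusted p 0.903). Its sign turned without aged 1 (0.21). Dnajb8, known from testis, had a difference of -0.04 (adjusted p 0.953).

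DNAJC, the most varied J-domain family, had 24 tested members, of which 10 means were higher and 14 lower in aged mice, with a median difference of -0.07. The median was -0.22 with arrays scaled on their medians, where that of all genes moved from -0.06 to -0.21. Dnajc14, an ER membrane protein that handles receptors on their way to the surface, was at 0.09, 0.07 and 0.32 in young and at -0.22, -0.17 and -0.26 in aged mice. The aged mice lay close together and all below the young mice, with a difference of -0.38 (SE 0.15, interval -0.75 to -0.02), a fold of 0.767, and an adjusted p of 0.332. Dnajc15, a J protein of the mitochondrial inner membrane, was at 6.96, 7.07 and 7.25 in young and at 6.77, 6.77 and 6.65 in aged mice. Its groups did not overlap, with a difference of -0.36 (SE 0.16, adjusted p 0.357).

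Dnajc21, a factor of ribosome maturation, and Dnajc4 were the other DNAJC members in which all aged mice lay below all young mice. Dnajc21 was at 4.12, 3.88 and 4.09 in young and at 3.72, 3.74 and 3.45 in aged mice, a difference of -0.40 (SE 0.17, adjusted p 0.347). Dnajc4 differed by -0.31 (SE 0.16, adjusted p 0.428). At the other end of the family Dnajc2, a J protein of the ribosome, had levels of 0.11, -0.39 and -1.06 in young and -0.68, 0.44 and 1.32 in aged mice. Its mice were spread widely in both groups, and the difference of 0.80 had an SE of 0.53 (adjusted p 0.522). Dnajc25 differed by 0.02 (SE 0.24, adjusted p 0.973).

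**Figure D3:**
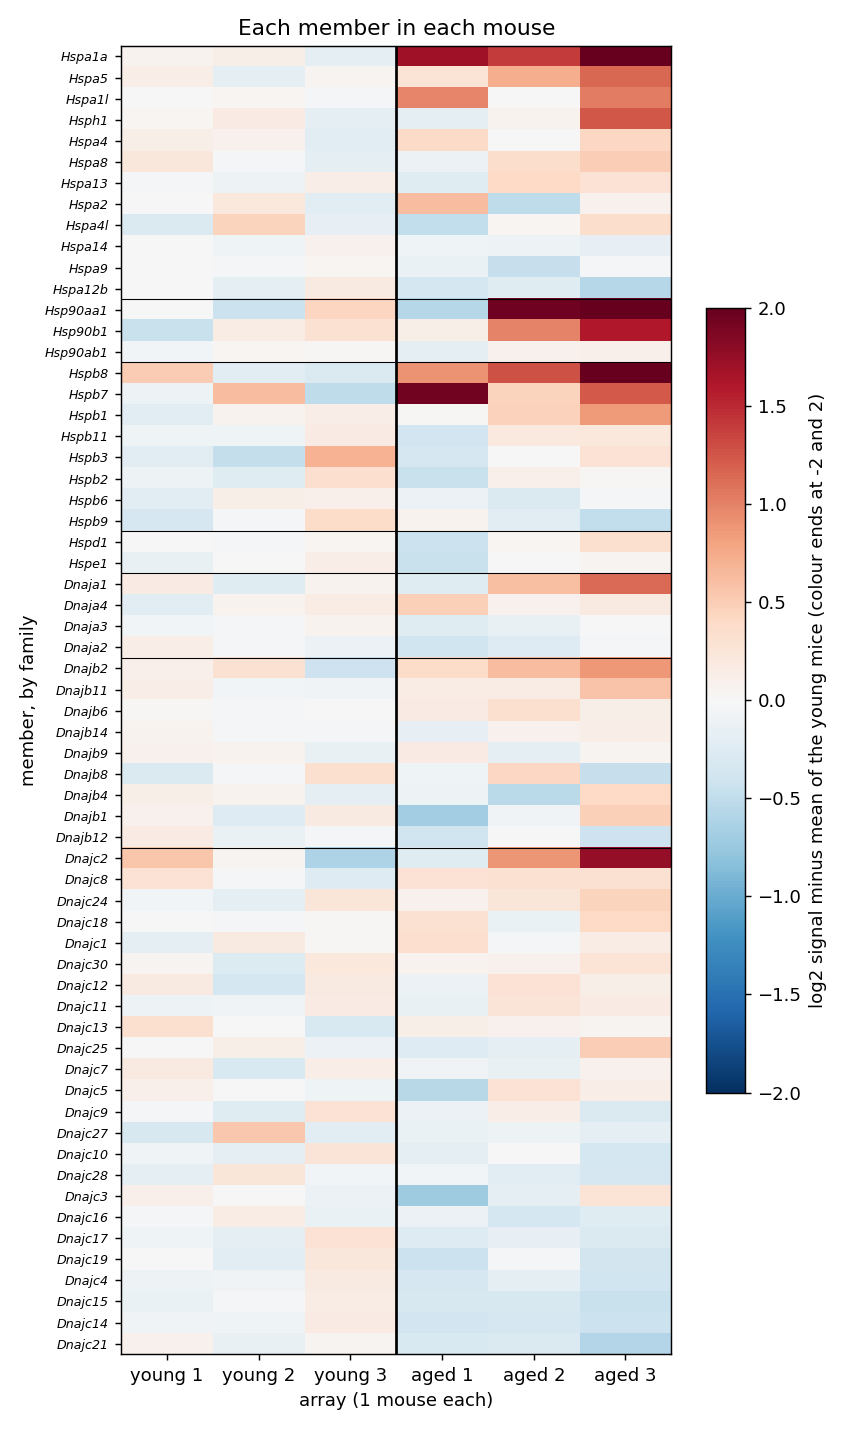
Level of each of the 62 tested members in each of the 6 mice, as its log2 deviation from the young mean (colour), with genes in rows grouped by family and mice in columns. The column of aged 3 holds 10 members more than 1 above the young mean, against 2 in aged 1 and 3 in aged 2.

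Grouped by compartment, the 10 ER members had a median difference of 0.08 (-0.07 with arrays scaled on their medians), with 7 means higher and 3 lower in aged mice, or 4 higher and 6 lower under that scaling. The list did not hold Dnajc14, whose difference of -0.38 was below that of every ER member counted. Hspa5 and Hsp90b1 were the ER members farthest above 0. Dnajb11 (ERdj3), a cochaperone of Hspa5, was at 3.43, 3.24 and 3.22 in young and at 3.45, 3.45 and 3.87 in aged mice, narrowly without overlap, for a difference of 0.29 (adjusted p 0.498). Dnajb9 (ERdj4), which is known to be induced by the unfolded protein response, had a difference of 0.01. Dnajc3 (p58IPK), which carries the same promoter motif as Hspa5 and Hsp90b1, was at 2.44, 2.34 and 2.22 in young and at 1.62, 2.14 and 2.60 in aged mice, a difference of -0.21 (SE 0.26, adjusted p 0.735). The 3 members with an ER stress element thus ran from -0.21 to 0.91. Among the tested members with a promoter window, the 13 with the 2-unit heat shock element had a median difference of -0.01, with 6 means higher in aged mice, and the 37 without it had one of -0.04, with 17 higher.

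The 8 mitochondrial members had a median difference of -0.13, with 2 means higher (Dnajc11 and Dnajc30, at 0.09 and 0.14) and 6 lower, from -0.36 to 0.14, and the median was -0.27 with arrays scaled on their medians and -0.03 after quantile normalization. None was at an unadjusted p under 0.05. Their summed level on the linear scale, in units of the array's 75th percentile, was 468 to 533 in young and 397 to 477 in aged mice. The summed level of the 8 slow-fibre markers, among them Myh7 and Tnni1, was 1377 to 1831 in young and 829 to 1265 in aged mice, and all 8 means were lower in aged mice. Slow fibres are rich in mitochondria. The 10 skeletal muscle markers had a median difference of -0.18, and of -0.01 after quantile normalization. The part of the slow-fibre or skeletal muscle signal in the mitochondrial members was not tested.

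The 3 aged mice differed from each other in these genes. Aged 3 was the highest of the 6 mice for 26 of 62 members (41.9%, against 16.8% of all genes), aged 2 for 6 (against 13.6%) and aged 1 for 5 (against 15.9%). Aged 1 was the lowest of the 6 for 18 members (29%, against 24.3% of all genes), aged 2 for 7 (against 10.9%) and aged 3 for 13 (against 24.1%). The median deviation from the young mean over the members was -0.13 in aged 1, 0.02 in aged 2 and 0.14 in aged 3, where that of all genes was -0.07, -0.01 and -0.07. Aged 3 was more than 1 above the young mean in 10 members (16.1%, against 6.24% of all genes), namely Hspa1a, Hspb8, Hspb7, Hspa5, Hspa1l, Hsph1, Hsp90aa1, Hsp90b1, Dnaja1 and Dnajc2. These counts compare genes of single mice and are a description with no test.

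**Figure D4:**
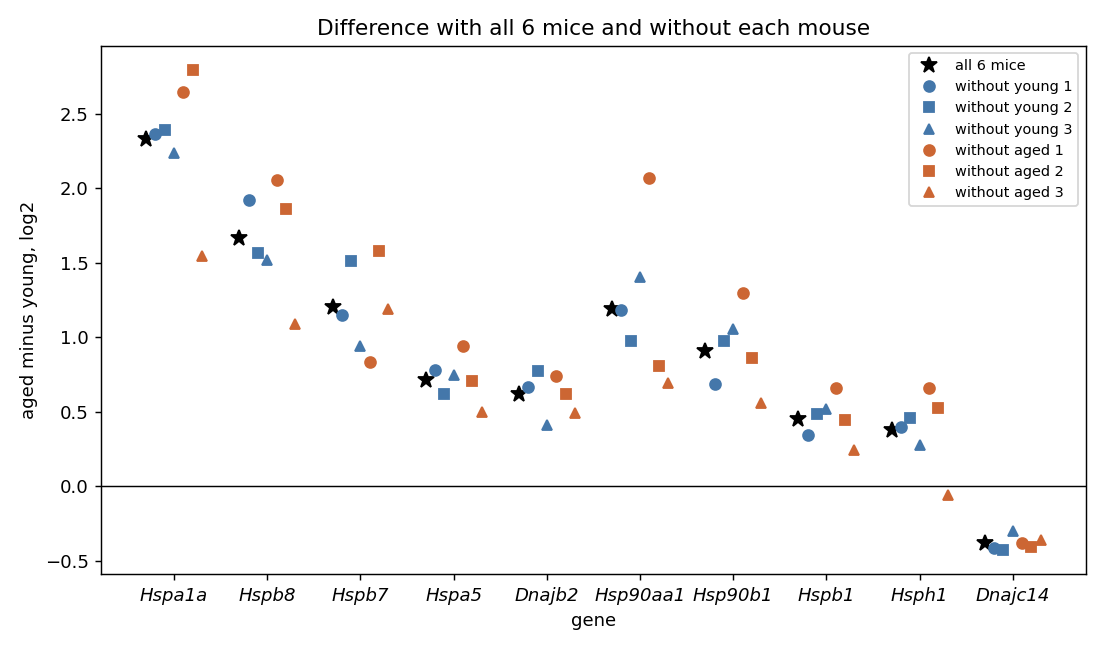
Difference between aged and young means (log2, y axis) of a part of the named genes (x axis), with all 6 mice and with each mouse left out in turn. The value of Hspa1a moves between 1.54 and 2.79 and that of Hspb8 between 1.09 and 2.06. That of Hsp90aa1 moves between 0.69 and 2.07 and that of Hsph1 between -0.06 and 0.66.

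The spread between aged mice was larger than that between young mice in 38 of 62 members (61.3%, against 57.6% of all genes). The median SD was 0.18 in young and 0.24 in aged mice for the members, beside 0.23 and 0.27 for all genes. The 5 members with the largest differences, Hspa1a, Hspb8, Hspb7, Hsp90aa1 and Hsp90b1, had an SD of 0.74 to 1.52 in aged mice. In young mice their SD was 0.17 (Hspa1a) to 0.57 (Hspb7). Of 18 members with more than 1 usable probe, all probes shared a sign in 15 and differed in sign in 3 (Dnajc11, Dnajc5 and Hspa8).

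The partners of these families were read from lists of other chaperone genes, in which no gene passed the adjusted threshold. The 5 tested genes of the heat shock factor list were the factors Hsf1, Hsf2 and Hsf4 and the factor-binding proteins Hsbp1 and Hsbp1l1. All 5 had a higher mean in aged mice, by 0.00 to 0.45, with a median of 0.21. With arrays scaled on their medians 3 of 5 were higher, and 4 of 5 after quantile normalization. The largest difference was that of Hsbp1, and those of Hsf2 and Hsf4 were 0.21 and 0.36. Hsf1, the factor that drives the heat shock response, was at 4.11, 4.11 and 4.31 in young and at 4.03, 4.39 and 4.12 in aged mice, with overlapping groups and a difference of 0.00 (SE 0.17, adjusted p 0.991). Of 9 nucleotide exchange factors of HSP70, 3 means were higher and 6 lower in aged mice, with a median of -0.05 (0.00 after quantile normalization). Sil1, an exchange factor of Hspa5 in the ER, had overlapping groups and a difference of -0.05 (SE 0.19, adjusted p 0.926). Hyou1, another exchange factor of Hspa5, was at -3.07, -3.31 and -4.20 in young and at -2.56, -2.82 and -2.13 in aged mice. The aged mice were all above the young mice, with a difference of 1.03 (SE 0.34, adjusted p 0.260), but the probe was well above background on 5 arrays only, and the value of young 3 lay below the lowest well-measured level of its array (-3.88), so the size of the difference rests in part on a value at background. Bag3, the partner of Hspb8, was at 5.95, 6.02 and 5.86 in young and at 6.13, 5.98 and 6.81 in aged mice, a difference of 0.36 (SE 0.24, adjusted p 0.525) carried mostly by aged 3.

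The 19 cochaperones of HSP70 and HSP90 had 11 means higher and 8 lower, with a median of 0.07 (-0.08 with arrays scaled on their medians, where 5 were higher). Of the 9 subunits of the cytosolic chaperonin CCT, which folds actin and tubulin, 8 means were higher in aged mice (6 with arrays scaled on their medians), with a median of 0.29. Cct6a was at an unadjusted p under 0.05, with a difference of 1.41 (SE 0.59, adjusted p 0.346). Young 3 was the lowest mouse for it, at 0.69 against 2.89 and 1.86 in the other young mice. Cct3 had the largest difference of the 9 (1.75, SE 0.75, adjusted p 0.357). Young 3 was again the lowest mouse, at 0.01 against 3.06 and 2.52 in the other young mice. The 6 prefoldin subunits, which hand clients to CCT, had a median of 0.09 (-0.06 with arrays scaled on their medians). They held 1 gene at an unadjusted p under 0.05 in each direction, Pfdn2 at 0.95 (adjusted p 0.316) and Pfdn1 at -0.65 (adjusted p 0.253). The groups overlapped for Pfdn2, where young 3 was lowest at 2.30 against 3.75 and 3.04 in the other young mice. For Pfdn1 they did not overlap. Cryab (alpha B-crystallin), a small heat shock protein without an Hspb symbol in the mouse, was at 8.91, 9.34 and 9.40 in young and at 9.30, 9.56 and 10.1 in aged mice, a difference of 0.42 (SE 0.25, adjusted p 0.478).

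Markers of other cells also differed between the groups. The 10 tested macrophage markers, of 11, had a median difference of 0.60 with 8 means higher in aged mice and a summed level of 43.9 to 51.9 in young and 50.4 to 52.5 in aged mice. The 6 tested neutrophil markers, of 7, had a median of 1.75, with 4 means higher and 2 lower in aged mice (3 and 3 with arrays scaled on their medians). Of these, S100a8 and S100a9 were higher at an adjusted p of 0.00600, whereas all aged mice lay below all young mice for Camp (-0.40, adjusted p 0.297) and Elane (-0.31, adjusted p 0.468). Their summed level of 157 to 161 in young and 169 to 199 in aged mice came mostly from Csf3r, with a difference of 0.05 (adjusted p 0.894). The 6 fibroblast markers had a median of -0.79, with 6 of 6 means lower in aged mice and a summed level of 447 to 509 in young and 209 to 343 in aged mice. The 5 tested erythrocyte markers, of 7, had a median of -1.03, with 5 of 5 means lower in aged mice and 4 at an unadjusted p under 0.05, and a summed level of 635 to 922 in young and 289 to 459 in aged mice. The 8 Schwann cell markers had a median of -0.87, with 6 means lower and 2 higher in aged mice and a summed level of 24.8 to 44.7 in young and 24.6 to 41.4 in aged mice, and Prx, a protein of peripheral myelin, was lower by the adjusted threshold (-1.29, adjusted p 0.0428). The 6 tested adipocyte markers, of 7, had a median of -0.23 and the 3 tested lymphocyte markers, of 7, one of -0.19, with no gene of either at an unadjusted p under 0.05. The deviation of the macrophage list from the young mean was 0.61, 0.49 and 0.75 in aged 1, aged 2 and aged 3, and that of the neutrophil list 2.01, 1.59 and 1.64. Their part in the values of the heat shock proteins was not tested.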

How the data were processed

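Gastrocnemius RNA of 3 young and 3 aged mice was labelled with Cy3 and hybridised to 1 Agilent array each. The values deposited are linear intensities, written by Agilent Feature Extraction (version 11.0.1.1 in the file headers, 9.5 in the submitters' processing notes), whose processed signal is background-subtracted and not scaled between arrays. The authors' value table held the same intensities (largest log2 difference 0). Here control spots and flagged spots (161 to 212 per array) were left out, log2 signals of spots of 1 probe were averaged, and each array's 75th percentile was subtracted. Because a signal is relative to its array, a change shared by most genes is not seen. The precision is limited by the 3 arrays per group.

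Accessions were matched to RefSeq transcripts of GRCm38.p6, which named 28319 of 55669 probes. A gene was represented by its brightest probe among those well above background on at least 3 of 6 arrays and saturated on none, which left 20900 genes, 13841 with a symbol. The effect of age was fitted by limma 3.58.1 under R 4.3.3 (lmFit, eBayes), two-sided, and p-values were adjusted over all genes by Benjamini-Hochberg, with 0.05 as threshold. On simulated data the script was also tested. Intervals are at the 95% level. Named members were those at an unadjusted p under 0.05, the brightest and dimmest of each family, and a list of well-known members. The other members with values (Hspa1l, Hspa4, Hspa4l, Hspa12b, Hspb2, Hspb3, Hspb11, Dnaja2, Dnajb9, Dnajb11, Dnajc2, Dnajc3, Dnajc4, Dnajc11, Dnajc21 and Dnajc30) were chosen after their values were seen. The members and lists were chosen with earlier results of these data known. The alternatives were background correction, scaling, filter, probe choice, a mean-variance trend, slide row, replicate block and leaving out each mouse.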

Additional observations from a re-analysis of the deposited data

How the results depend on the processing

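Of the 24 named genes, 12 kept their direction under all 16 alternatives, among them Hspa1a, Hspb8, Hspa5, Hspb7, Dnajb2, Dnajc14 and Hsp90b1, and 12 turned under at least 1. The cause was not tested. No member passed the adjusted threshold under any alternative except without aged 1, where 1 did (Hsp90aa1, range over the mice left out 0 to 1). In the fit without aged 1, slide row and age cannot be told apart. Genes past the threshold over the whole array numbered 53, and 8 without a filter on dim probes, 35 with the filter on all 6 arrays, 73 with a mean-variance trend, 199 without aged 1 and 1 without aged 3.

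Members at an unadjusted p under 0.05 numbered 5 higher and 1 lower (against 6.07% and 8.36% of all genes). They were 7 and 4 with normexp, 7 and 1 with quantile normalization, 3 and 3 with median scaling, 6 and 0 with the percentile over detected probes, 4 and 0 without a filter, 6 and 3 with the filter on all arrays, 5 and 2 with the mean of all probes, 7 and 3 with a mean-variance trend, and 1 and 2 with slide row as a block. The shares of all genes were 5.55% and 9.54% with normexp, 5.87% and 8.45% with quantile normalization, and 3.14% and 11.7% with median scaling. They were 6.82% and 6.73% with the percentile over detected probes, and 4.73% and 4.65% without a filter. With the filter on all arrays they were 5.75% and 9%. With the mean of all probes they were 6.23% and 7.88%, and with a mean-variance trend 6.02% and 9.01%. Leaving out 1 mouse gave 2 to 9 higher and 0 lower, against 4.33% to 7.36% and 4.53% to 10.7% of all genes. Replicate numbers did not pair the mice (correlations of same-numbered mice -0.062, -0.27 and 0.028). With the replicate block 0 members passed the threshold, and 5 genes passed over the whole array. At an unadjusted p under 0.05 in that fit, 5 members were higher and 0 lower, against 5.5% and 5.5% of all genes.

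Median scaling moved the median of all genes to -0.21, of the members to -0.14, of DNAJA to -0.089, of DNAJB to -0.14 and of DNAJC to -0.22. Slide row as a block sets aged 1 alone against the young mice. It moved the members to -0.13, DNAJA to -0.25, HSP60 and HSP10 to -0.43, HSP70 and HSP110 to -0.10 and HSP90 to -0.17. Leaving out 1 mouse gave medians of -0.050 to 0.12 for the members, -0.01 to 0.11 for DNAJA, -0.019 to 0.11 for DNAJB, -0.17 to 0.0034 for DNAJC, -0.20 to 0.11 for HSP60 and HSP10, 0.06 to 0.28 for HSP70 and HSP110, 0.56 to 1.30 for HSP90 and -0.081 to 0.21 for small heat shock proteins.

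Signs turned with normexp for Dnajb8 (0.032) and Dnajc25 (-0.039), with quantile normalization for Hspb6 (0.013) and Hspd1 (0.073), with median scaling for Dnajc25 (-0.13) and Hsp90ab1 (-0.14), and with the percentile over detected probes for Hspd1 (0.012). With slide row as a block they turned for Dnaja1 (-0.25), Dnajc25 (-0.25), Hsp90aa1 (-0.57), Hsp90ab1 (-0.17), Hspa8 (-0.12), Hspb9 (0.070) and Hsph1 (-0.19). Leaving out 1 mouse, the values ran from -0.045 to 0.094 for Hsp90ab1, -0.27 to 0.17 for Dnajb8, -0.22 to 0.16 for Dnajc25, -0.38 to 0.21 for Dnajb1, -0.20 to 0.18 for Hspd1, -0.21 to 0.035 for Hspe1 and -0.055 to 0.66 for Hsph1.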
